A study of Homo sapiens with 12 samples.

Results

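The enzymes of purine and pyrimidine nucleotide synthesis were examined in 2 prostate cancer cell lines, as a set of 33 genes chosen by symbol from the 60314 named entries of each expression table. All 33 were present in both tables and all 33 passed the filter on low values. The 6 members that consume glutamine (PPAT, PFAS, GMPS, CAD, CTPS1 and CTPS2) were set beside the other 27. RNA was sequenced from 22RV1 cells (called RV1 in most labels), a line derived from a relapsed prostate tumour xenograft, and from C4-2B cells, a metastatic derivative of the LNCaP line. Both were labelled wild type and were kept for 48 h in glutamine-free medium with serum to which L-glutamine had been added at 2 mM, either with the oligonucleotide 56-mer at 50 nM or without it. Each of the 4 groups (22RV1 56-mer, 22RV1 control, C4-2B 56-mer and C4-2B control) had 3 libraries, which the series text calls biological triplicates. Every group, controls included, therefore had the same added glutamine, and the control labels name no other oligonucleotide. Each line stands for 1 genetic background. Total reads recovered from the tables ranged over 8847368 to 13740386 in 22RV1 56-mer libraries, 11834331 to 13586045 in 22RV1 controls, 12277758 to 12508539 in C4-2B 56-mer libraries and 10245014 to 13627140 in C4-2B controls. All 10 luminal prostate epithelium markers were detected in both lines. The 3 basal markers (KRT5, KRT14 and TP63) summed to at most 0.911 CPM in any library, with KRT5 and TP63 at 0 in all. Neuroendocrine markers summed to 284 to 346 CPM over 22RV1 libraries and 15.2 to 20.3 CPM over C4-2B libraries, with NCAM1 and INSM1 below the filter in both lines. In any library leukocyte markers summed to at most 19.0 CPM, endothelial markers to 19.7 CPM and fibroblast markers to 35.3 CPM.

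Cells make purines by assembling the ring step by step on phosphoribosyl pyrophosphate, and make pyrimidines by closing the ring first and attaching the sugar phosphate afterwards. Glutamine donates its amide nitrogen at several of these steps, which ties nucleotide supply in dividing cells to glutamine. Finished bases and nucleosides can also be recovered by salvage enzymes, and the deoxynucleotides needed for DNA come from ribonucleotide reductase and thymidylate synthesis, much of which is expressed most strongly in S phase.

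In control cells the lines held these enzymes at different levels. Levels are given as RPKM (counts per kilobase of exon in GENCODE 29, scaled to equal library totals like CPM), each as mean ± SD of 3 control libraries. The tables of the 2 lines were normalized separately, so levels set side by side across lines rest on CPM and carry no test. In such bulk libraries fewer expressing cells and less RNA per cell cannot be told apart. Over 15527 genes tested in both, the median ratio of 22RV1 to C4-2B controls was 1.23 (0.29 on the log2 scale), and 44.9% differed by at least 2-fold. Among the 33 members 10 did so (30.3%), 3 higher and 7 lower in 22RV1. Control libraries of the 2 lines did not overlap in CPM for 76.5% of the genes and for 28 of the members (84.85%). In CPM 17 members were higher in 22RV1, and 14 when the lines were set to an equal median over all genes, with the same 3 and 7 members at 2-fold or more under both scalings.

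The first committed step of purine synthesis had a higher level in 22RV1 controls. PPAT, the amidophosphoribosyltransferase that commits phosphoribosyl pyrophosphate to purines using glutamine, stood at 26.1 ± 1.82 RPKM in 22RV1 controls and 9.42 ± 0.934 RPKM in C4-2B controls, a ratio of 2.78. PAICS, the bifunctional enzyme of 2 later ring-assembly steps, stood at 49.4 ± 0.841 RPKM in 22RV1 controls and 45.3 ± 2.06 RPKM in C4-2B controls, a ratio of 1.09. The lines thus differed in PPAT and much less in PAICS. In RefSeq (GRCh38.p14) the start sites of these genes lie 137 bases apart on opposite strands of chromosome 4, and their promoter windows, which reach 250 bases before and 50 after each start, overlap by 236 bases. Both windows are printed 5′ to 3′ on their own gene's strand because their genes share a start region. Any part of this region in the balance of the 2 genes between the lines was not tested. Capitals mark the only match to the E-box letters CACGTG, which is the same 6 bases in both (chr4:56435792-56435797), 182 bases before the PPAT start and 40 bases after the PAICS start.
PPAT (chr4:56435566-56435865, minus strand): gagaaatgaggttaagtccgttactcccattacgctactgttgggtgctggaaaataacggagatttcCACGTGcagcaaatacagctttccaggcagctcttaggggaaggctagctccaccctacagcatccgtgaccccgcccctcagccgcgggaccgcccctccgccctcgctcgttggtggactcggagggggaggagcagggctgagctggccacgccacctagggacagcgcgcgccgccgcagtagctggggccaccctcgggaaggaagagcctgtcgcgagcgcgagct
PAICS (chr4:56435502-56435801, plus strand): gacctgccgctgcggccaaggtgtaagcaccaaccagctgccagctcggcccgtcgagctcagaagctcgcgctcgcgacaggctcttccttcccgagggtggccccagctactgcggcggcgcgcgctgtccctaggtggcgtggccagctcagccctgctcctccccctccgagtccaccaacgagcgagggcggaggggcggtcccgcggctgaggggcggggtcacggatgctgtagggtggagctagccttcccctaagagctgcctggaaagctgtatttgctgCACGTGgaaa
Among all 35116 RefSeq promoter windows, 7.26% held CACGTG on either strand (the letters read the same on both), against 6 of the 47 windows of the 30 members that matched (12.8%). Those windows belonged to PPAT, PAICS, ATIC, DCK, DHODH and NME1, and the match shared by PPAT and PAICS was counted in both of their windows. The E2F letters TTTGGCG or TTTCGCG, searched on both strands, were in 4 of the 47 windows (8.51%, in DCK, DUT, GART and GMPS) and in 3.19% of all windows. A match describes these letters only.

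Within single libraries, the PAICS to PPAT ratio per kilobase ranged over 1.85 to 2.15 in 22RV1 56-mer libraries and 1.76 to 2.07 in 22RV1 controls. It ranged over 4.84 to 6.69 in C4-2B 56-mer libraries and 4.37 to 5.38 in C4-2B controls. No 22RV1 library reached the lowest C4-2B library, with or without 56-mer, and a ratio within a library does not depend on its scaling. Such separation was common, as control CPM of single genes did not overlap between the lines for 76.5% of 15527 genes. For ratios no such share was computed. The pair is not one of paralogs and was not in the planned ratio tests.

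The other ring-assembly enzymes did not share 1 direction. GART, which carries out 3 steps of the assembly, had a ratio of 22RV1 to C4-2B controls of 1.82, and PFAS, the glutamine-consuming formylglycinamidine synthase, of 1.21. ATIC, which closes the ring to give IMP, was lower in 22RV1 at a ratio of 0.410. ADSL, the adenylosuccinate lyase, had 1.59 ± 0.434 RPKM in 22RV1 controls and 1.76 ± 0.121 RPKM in C4-2B controls. That is among the lowest levels of the set, but 28.4% of its exon bases overlap the same-strand entry AL022238.4 in GENCODE 29 (0 to 13.7 normalized counts), and the counting rule for shared bases is not given in the sources used here. PRPS1 and PRPS2, which make phosphoribosyl pyrophosphate, had ratios of 0.867 and 1.38.

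Past IMP, IMPDH1 and IMPDH2 on the guanine branch had higher levels than ADSS2 on the adenine branch in both lines. IMPDH2, the isoenzyme of IMP dehydrogenase prominent in dividing cells, had the highest level per kilobase of all members in 22RV1 controls, 130 ± 1.99 RPKM, against 187 ± 6.42 RPKM in C4-2B controls, where APRT and TK1 were higher. GUK1 stood at 181 ± 5.01 RPKM in C4-2B controls, within 1 SD of IMPDH2 by the IMPDH2 SD but not by its own. With the length of the longest coding transcript in place of merged exons GUK1 reached 288 RPKM there, above IMPDH2 at 187 RPKM. IMPDH1, the paralog of IMPDH2, stood at 32.7 ± 2.41 RPKM in 22RV1 controls and 70.9 ± 1.76 RPKM in C4-2B controls, a ratio of 0.461. Entries for IMPDH1 pseudogenes held up to 13.6% of the IMPDH1 count in a 22RV1 library. GMPS, which aminates XMP to GMP with glutamine, had a ratio of 1.55, and ADSS2, the first enzyme towards AMP, of 1.73, with 10.8 ± 1.32 RPKM in 22RV1 controls and 6.23 ± 0.558 RPKM in C4-2B controls.

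Of the de novo pyrimidine enzymes, CAD differed most between the lines. CAD, the enzyme that joins carbamoyl phosphate synthesis from glutamine to the next 2 steps, stood at 24.5 ± 2.25 RPKM in 22RV1 controls and 8.18 ± 1.35 RPKM in C4-2B controls, with 178 ± 16.4 CPM in 22RV1 controls and 59.4 ± 9.78 CPM in C4-2B controls. CTPS1, a glutamine-consuming CTP synthase, had a ratio of 1.56, while its paralog CTPS2 had 0.916. DHODH, the mitochondrial dihydroorotate dehydrogenase, had 0.899 and UMPS, which makes UMP, 1.31. The 6 glutamine-consuming members had a median ratio of 1.56 with 5 higher in 22RV1, and the other 27 a median of 0.899 with 12 higher. With the lines set to an equal median over all genes, 4 of the 6 and 10 of the 27 were higher in 22RV1, and PFAS lay below 1 at 0.984.

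Several salvage enzymes and nucleotide kinases were lower in 22RV1 controls. TK1, the cytosolic thymidine kinase of S phase, stood at 49.5 ± 1.94 RPKM in 22RV1 controls and 227 ± 0.664 RPKM in C4-2B controls, a ratio of 0.219. APRT, which salvages adenine, had 86.6 ± 5.13 RPKM in 22RV1 controls and 383 ± 29.8 RPKM in C4-2B controls, a ratio of 0.226. GUK1, the guanylate kinase, had a ratio of 0.272, DTYMK, the thymidylate kinase, of 0.388 and NME1, a nucleoside diphosphate kinase, of 0.359. The salvage enzymes HPRT1, for hypoxanthine and guanine, and DCK, the deoxycytidine kinase, had ratios of 1.30 and 1.31, and mitochondrial TK2 of 1.64, so the salvage enzymes did not share 1 direction. CMPK1, the UMP-CMP kinase, had 0.862, and NME2, whose level was the lowest per kilobase of the set in both lines, 0.856. NME1 and NME2 share 32.4% and 40.4% of their exon bases with the readthrough entry NME1-NME2, which was at 0 in all 12 libraries, and the NME2 pseudogene entry reached 34.3% of the NME2 count. Their levels are therefore uncertain.

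Among the deoxynucleotide enzymes RRM2B stood out. This p53-inducible small subunit of ribonucleotide reductase had 13.005 ± 1.47 RPKM in 22RV1 controls and 3.33 ± 0.474 RPKM in C4-2B controls, at 3.91 the highest ratio of the set. RRM1 and RRM2, the large subunit and the S-phase small subunit, had ratios of 1.29 and 1.34. TYMS, the thymidylate synthase, had 0.740, DUT, which removes dUTP, 0.845 and DCTD, the dCMP deaminase, 1.10. Opposite-strand genes (ENOSF1 and TYMSOS) cover 64.6% of TYMS exon bases, and 17.2% of DUT and 26.1% of TK2 lie under opposite-strand entries, whose reads can be told apart only in stranded counting.

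**Figure D1:**
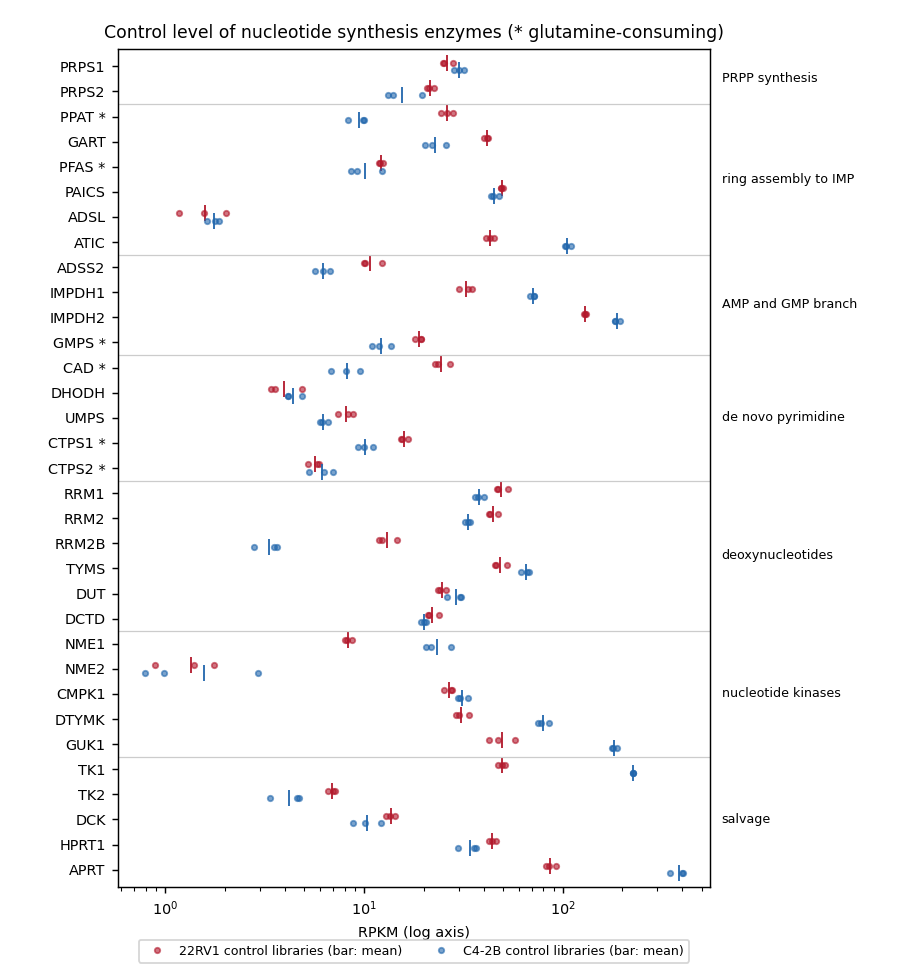
Level of each of the 33 enzymes in control libraries, in RPKM on a log axis, with 3 points per line and a bar at the mean, grouped by role; asterisks mark glutamine-consuming enzymes. TK1, APRT and GUK1 lie far to the left in 22RV1 and RRM2B, CAD and PPAT to the right, while NME2 and ADSL are lowest in both lines.

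Summed over roles, salvage enzymes held 314 ± 5.78 CPM in 22RV1 controls and 877 ± 26.7 in C4-2B controls, and nucleotide kinases 251 ± 18.6 CPM in 22RV1 controls and 622 ± 7.41 in C4-2B controls (SD, n = 3). De novo pyrimidine enzymes held 372 ± 15.6 CPM in 22RV1 controls and 212 ± 3.34 in C4-2B controls. TK1 and APRT made up most of the salvage sum, with 172 ± 7.03 CPM together in 22RV1 controls and 774 ± 29.8 in C4-2B controls. The other 3 salvage enzymes together were higher in 22RV1 controls, at 142 ± 1.91 CPM, against 103 ± 6.48 in C4-2B controls. Ring-assembly enzymes held 792 ± 7.36 CPM in 22RV1 controls and 769.6 ± 27.8 in C4-2B controls, a gap within the C4-2B SD but beyond the 22RV1 SD. The 20 proliferation markers summed to 2184 to 2223 CPM in 22RV1 controls and 2476 to 2604 in C4-2B controls, and the part of that in the TK1 and DTYMK levels was not tested.

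Within a library the balance of most paralog pairs differed between the lines. TK1 exceeded TK2 per kilobase by 6.15 to 7.23 times in 22RV1 56-mer libraries and 6.61 to 7.48 times in 22RV1 controls, and by 53.3 to 67.3 times in C4-2B 56-mer libraries and 48.3 to 67.1 times in C4-2B controls. RRM2 exceeded RRM2B by 2.72 to 3.38 times in 22RV1 56-mer libraries and 3.23 to 3.61 times in 22RV1 controls, and by 9.94 to 13.2 times in C4-2B 56-mer libraries and 9.09 to 11.6 times in C4-2B controls. Neither pair overlapped between the lines, a description with no test. Such separation was common, as control CPM of single genes did not overlap between the lines for 76.5% of 15527 genes. No share over all genes was computed for ratios. Of RRM2 exon bases 27.9% lie under the same-strand entry AC007240.1.

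For CTP synthase the order of the lines was the other way, with CTPS1 to CTPS2 at 2.79 to 3.15 in 22RV1 56-mer libraries and 2.69 to 2.94 in 22RV1 controls, and at 1.33 to 1.74 in C4-2B 56-mer libraries and 1.44 to 1.77 in C4-2B controls. IMPDH1 to IMPDH2 was 0.224 to 0.252 in 22RV1 56-mer libraries and 0.228 to 0.272 in 22RV1 controls, and 0.381 to 0.441 in C4-2B 56-mer libraries and 0.369 to 0.393 in C4-2B controls. PRPS1 to PRPS2 was 1.10 to 1.43 in 22RV1 56-mer libraries and 1.13 to 1.34 in 22RV1 controls, and 2.14 to 2.54 in C4-2B 56-mer libraries and 1.64 to 2.16 in C4-2B controls. These 3 pairs did not overlap between the lines either. NME1 to NME2 spread widely, over 3.18 to 5.60 in 22RV1 56-mer libraries, 4.57 to 9.85 in 22RV1 controls, 13.3 to 17.0 in C4-2B 56-mer libraries and 9.29 to 25.9 in C4-2B controls. Between 56-mer and control, exact two-sided permutation tests of the log2 ratios gave no p below 0.2 in the 12 comparisons (smallest possible 0.1 with 3 against 3) and no adjusted p below 0.6.

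**Figure D2:**
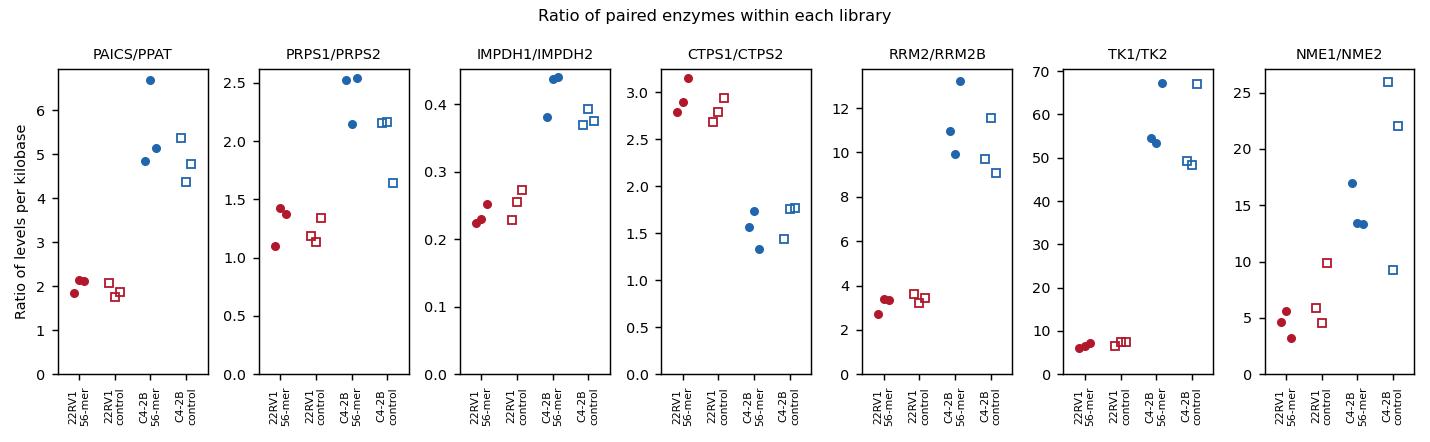
Ratio of the levels per kilobase of paired enzymes within each library (linear axes from 0); filled circles are 56-mer and open squares control libraries, 3 per group. For PAICS/PPAT, PRPS1/PRPS2, IMPDH1/IMPDH2, CTPS1/CTPS2, RRM2/RRM2B and TK1/TK2 the libraries of the 2 lines do not overlap, while the ranges of 56-mer and control overlap within each line. Control CPM of single genes did not overlap between the lines for 76.5% of genes either.

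The series compares 56-mer with control in each line, and no nucleotide synthesis enzyme passed the test in either. limma on log2(normalized count + 1), with Benjamini-Hochberg adjustment over all genes, called 0 of 33 members in 22RV1, where it called 0.00975% of 20517 genes, and 0 of 33 in C4-2B, where it called 0.066% of 16657 genes. At an unadjusted p under 0.05 it listed 0 members in 22RV1 (3.91% of all genes) and 3 in C4-2B (9.09% of members, 8.92% of all genes). edgeR on the recovered reads called 0 of 33 members in each line (0.00975% of all genes in 22RV1 and 0% in C4-2B), with 0 at an unadjusted p under 0.05 in 22RV1 (3.72% of all genes) and 2 in C4-2B (8.06%). DESeq2 on these reads called 0 members as well (0.0146% of genes with an adjusted p in 22RV1 and 1.72% in C4-2B), with 0 at an unadjusted p under 0.05 in 22RV1 (3.23% of all genes) and 3 in C4-2B (7.91%), but in C4-2B it gave an adjusted p to only 15 of the 33. The C4-2B limma share lies near that of all genes.

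For most members the 95% intervals bound the change at 1.5-fold in either direction. Some intervals were narrower than this bound, such as that of PAICS, at -0.14 to 0.12 in 22RV1 and -0.16 to 0.15 in C4-2B (log2 scale). Only changes inside a member's own interval were not excluded. In 22RV1 the 95% interval of the change lay within 1.5-fold in either direction for 30 of 33 members, all but NME1, NME2 and ADSL, and within 2-fold for 32. In C4-2B it lay within 1.5-fold for 29, all but DCK, ADSL, ADSS2 and NME2, and within 2-fold for 31. The median log2 change of the 33 was -0.027 in 22RV1 (12 higher, 21 lower; all genes -0.0026) and 0.058 in C4-2B (20 higher, 13 lower; all genes -0.011). The C4-2B median moved to 0.016 with columns scaled to equal totals, to 0.028 with quantile normalization or without C4-2B 56-mer 1, and to 0.035 with correction for GC content and length. For a single member, replicates within a group had a median SD on the log2 scale of 0.095 in 22RV1 and 0.14 in C4-2B.

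**Figure D3:**
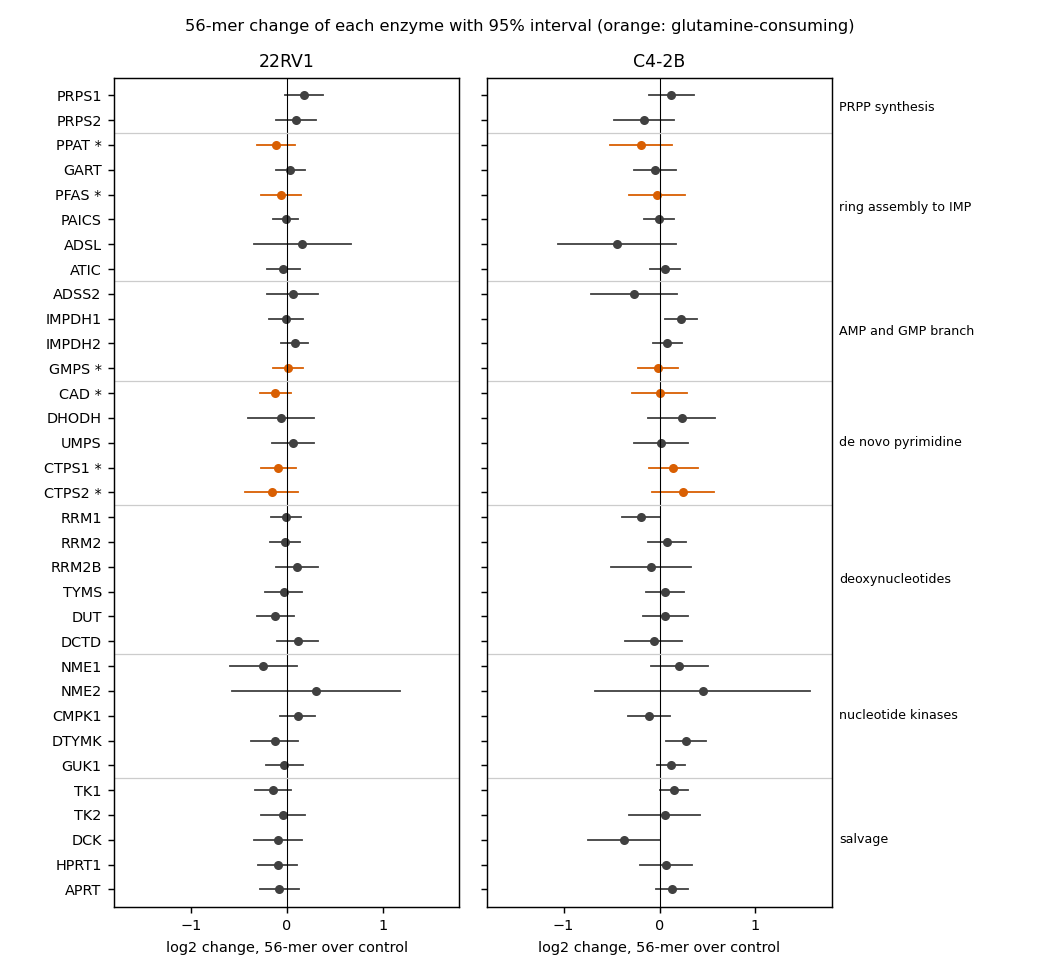
log2 change of each enzyme, 56-mer over control, with its 95% interval from limma, for 22RV1 on the left and C4-2B on the right; glutamine-consuming enzymes are orange. Nearly all intervals cross 0, IMPDH1, DTYMK and TK1 in C4-2B being the exceptions before adjustment, and NME2 and ADSL have the widest.

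The glutamine-consuming enzymes are described by their normalized counts, which are comparable within a line only. PPAT had 1251, 965 and 998 in 22RV1 56-mer libraries, against 1072, 1236 and 1151 in 22RV1 controls. It had 379, 301 and 384 in C4-2B 56-mer libraries, against 361, 429 and 423 in C4-2B controls. The groups overlapped in both lines, and the log2 changes were -0.11 ± 0.096 (SE; 95% interval -0.31 to 0.080) in 22RV1 and -0.19 ± 0.16 (SE; 95% interval -0.51 to 0.13) in C4-2B. For PFAS the counts were 668, 753 and 838 in 22RV1 56-mer libraries, against 764, 777 and 805 in 22RV1 controls. They were 538, 636 and 669 in C4-2B 56-mer libraries, against 546, 774 and 573 in C4-2B controls. These groups also overlapped, with log2 changes of -0.060 ± 0.10 (SE; 95% interval -0.27 to 0.15) in 22RV1 and -0.026 ± 0.14 (SE; 95% interval -0.32 to 0.26) in C4-2B. GMPS showed 2223, 1964 and 1843 in 22RV1 56-mer libraries, against 2028, 2043 and 1891 in 22RV1 controls. It showed 1285, 1184 and 1218 in C4-2B 56-mer libraries, against 1231, 1120.1 and 1385 in C4-2B controls. Again neither line separated the groups, and the log2 changes were 0.013 ± 0.079 (SE; 95% interval -0.15 to 0.17) in 22RV1 and -0.015 ± 0.10 (SE; 95% interval -0.23 to 0.20) in C4-2B.

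The pyrimidine steps that use glutamine were no clearer. CAD counted 1848, 1935 and 2105 in 22RV1 56-mer libraries, against 2063, 1991 and 2352 in 22RV1 controls. It counted 590.2, 797 and 695 in C4-2B 56-mer libraries, against 696, 809.8 and 574 in C4-2B controls. In 22RV1 only 1 56-mer library exceeded any control, and the log2 change was -0.12 ± 0.079 (SE; 95% interval -0.28 to 0.039), limma adjusted p = 0.9996. In C4-2B it was 0.0043 ± 0.14 (SE; 95% interval -0.28 to 0.29). CTPS1 reached 963, 1089 and 1062 in 22RV1 56-mer libraries, against 1083, 1156 and 1069 in 22RV1 controls. It reached 833, 796 and 657 in C4-2B 56-mer libraries, against 684, 629.6 and 747 in C4-2B controls. The groups overlapped in both lines, and the log2 changes were -0.088 ± 0.091 (SE; 95% interval -0.27 to 0.095) in 22RV1 and 0.15 ± 0.12 (SE; 95% interval -0.11 to 0.40) in C4-2B. CTPS2 gave 289, 314 and 282 in 22RV1 56-mer libraries, against 337, 347 and 304 in 22RV1 controls. It gave 444, 383 and 413 in C4-2B 56-mer libraries, against 397, 299.98 and 353 in C4-2B controls. Its log2 changes, -0.16 ± 0.14 (SE; 95% interval -0.44 to 0.12) in 22RV1 and 0.25 ± 0.15 (SE; 95% interval -0.074 to 0.56) in C4-2B, had opposite signs, and their difference, 22RV1 minus C4-2B, was -0.40 ± 0.20 (SE; 95% interval -0.82 to 0.012), limma adjusted p = 0.637.

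**Figure D4:**
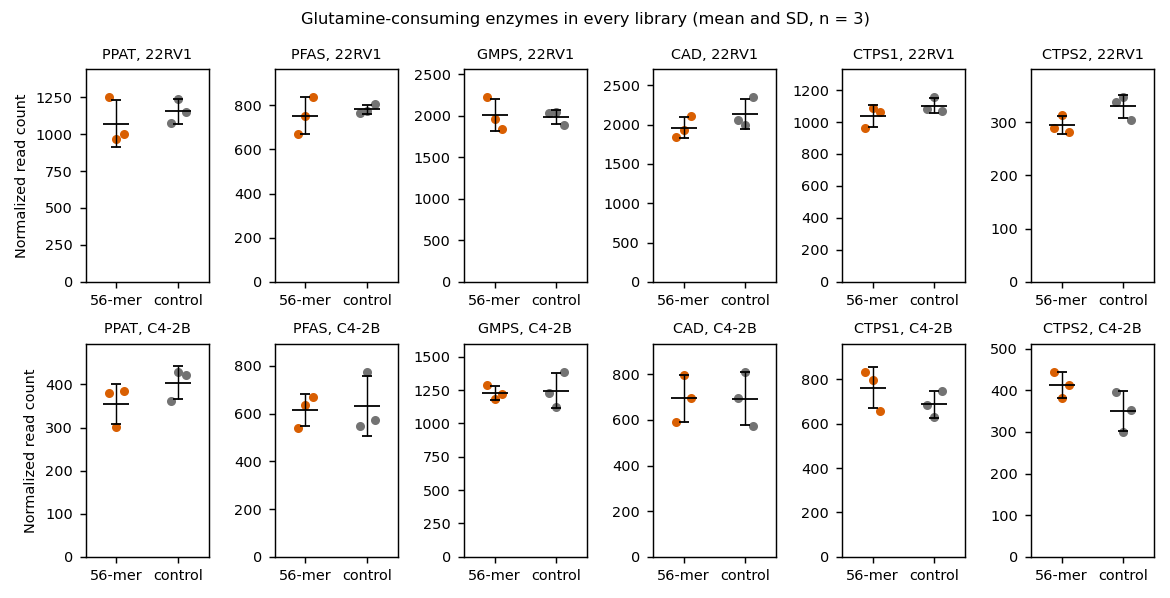
Normalized read count of the 6 glutamine-consuming enzymes in each library, 22RV1 in the upper row and C4-2B in the lower, with 56-mer libraries on the left of each panel and bars for mean and SD (n = 3). In every panel the 56-mer and control points overlap.

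As a group the 6 had a median log2 change of -0.10 in 22RV1 (1 higher, 5 lower), against -0.014 for the other 27 (11 higher, 16 lower). In C4-2B the 6 had -0.0051 (3 higher, 3 lower), against 0.058 for the other 27 (17 higher, 10 lower). Under equal totals, quantile normalization or correction for GC content and length, 0 of the 6 were higher in 22RV1. In C4-2B 2 of the 6 were higher under equal totals and 4 under the correction, which turned the median of the 6 minus that of the other 27 to 0.023. Summed over the 6, normalized counts were 7242, 7019 and 7128 in 22RV1 56-mer libraries, against 7346, 7550.4 and 7571 in 22RV1 controls, which did not overlap. Each of the 6 overlapped on its own. Of all single genes 9.03% did not overlap in 22RV1, and no such share was computed for sums. In C4-2B the sums were 4071, 4096 and 4036 in 56-mer libraries, against 3916, 4063 and 4055 in controls, which overlapped. In CPM the 22RV1 sums were 588 ± 6.85 in 56-mer libraries and 625 ± 10.3 in controls, and the C4-2B sums 339 ± 3.72 in 56-mer libraries and 344 ± 9.60 in controls (SD, n = 3), so the sign in C4-2B turned with the scaling. No p is given for a sum over chosen members. The median log2 deviation of the 6 from the control mean, minus that of the other 27, was -0.25 in 22RV1 56-mer 1, 0.00054 in 56-mer 2 and -0.064 in 56-mer 3. Without C4-2B 56-mer 1 the C4-2B median of the 6 minus that of the other 27 was 0.049 and without C4-2B control 2 it was 0.057, against -0.063 with all libraries.

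TK1, DTYMK and IMPDH1 had the smallest unadjusted p in C4-2B. TK1 had 858, 940.1 and 982.7 in 22RV1 56-mer libraries, against 982.9, 1067 and 1024 in 22RV1 controls. The 56-mer libraries were the lower, but the gap between these groups was 0.161 normalized counts, which is less than 1 read, and the log2 change was -0.15 ± 0.093 (SE; 95% interval -0.33 to 0.043), limma adjusted p = 0.9996. In the other line TK1 had 5352, 4845 and 5009.8 in C4-2B 56-mer libraries, against 4584, 4584 and 4517 in C4-2B controls. There the 56-mer libraries were the higher without overlap, with a log2 change of 0.15 ± 0.070 (SE; 95% interval 0.0076 to 0.29), limma adjusted p = 0.541. With correction for GC content and length that change was 0.035, and with quantile normalization 0.088. The difference of changes, 22RV1 minus C4-2B, was -0.30 ± 0.11 (SE; 95% interval -0.52 to -0.077), limma adjusted p = 0.546. The proliferation markers summed to 2110 to 2194 CPM in 22RV1 56-mer libraries and 2184 to 2223 in 22RV1 controls, and to 2512 to 2646 in C4-2B 56-mer libraries and 2476 to 2604 in C4-2B controls. Their part in the TK1 values was not tested.

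DTYMK, which phosphorylates the TK1 product, had 460.4, 387 and 407 in 22RV1 56-mer libraries, against 446, 428 and 495 in 22RV1 controls. It had 1339, 1489 and 1331 in C4-2B 56-mer libraries, against 1093, 1120.1 and 1219.9 in C4-2B controls. The C4-2B groups did not overlap and the 22RV1 groups did, with log2 changes of -0.13 ± 0.12 (SE; 95% interval -0.38 to 0.12) in 22RV1 and 0.28 ± 0.099 (SE; 95% interval 0.073 to 0.48) in C4-2B (limma adjusted p = 0.452 in C4-2B). The C4-2B value was 0.16 with correction for GC content and length. IMPDH1 counts were 1124, 1134 and 1212 in 22RV1 56-mer libraries, against 1073, 1189 and 1239.6 in 22RV1 controls. They were 2742, 2849 and 3069 in C4-2B 56-mer libraries, against 2515, 2507 and 2369 in C4-2B controls. The 22RV1 groups overlapped, with a log2 change of -0.011 ± 0.089 (SE; 95% interval -0.19 to 0.17), while all 3 C4-2B 56-mer libraries lay above all controls, with 0.23 ± 0.080 (SE; 95% interval 0.063 to 0.39), limma adjusted p = 0.446. The differences of changes, 22RV1 minus C4-2B, were -0.40 ± 0.15 (SE; 95% interval -0.72 to -0.094) for DTYMK (limma adjusted p = 0.563) and -0.24 ± 0.11 (SE; 95% interval -0.47 to -0.0029) for IMPDH1 (limma adjusted p = 0.629). With the same correction the differences were -0.14 for TK1, -0.25 for DTYMK and -0.14 for IMPDH1. In the uncorrected fit limma called 0 of 33 members and 0% of 15527 genes, and at an unadjusted p under 0.05 it listed TK1, DTYMK and IMPDH1, which is 9.09% of members against 7.9% of all genes. edgeR called 0 members in the difference (0.00644% of all genes), with 3 at an unadjusted p under 0.05 (8.05% of all genes). DESeq2 called 0 of the 14 members to which it gave an adjusted p (0.155% of genes with one), with 5 of 33 at an unadjusted p under 0.05 (8.51% of all genes).

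Groups without overlap were counted for all members. In 22RV1 4 of 33 did not overlap (12.1%, against 9.03% of all genes), IMPDH2 being higher and DUT, NME1 and TK1 lower with 56-mer. In C4-2B 7 of 33 did not (21.2%, against 14.7% of all genes), IMPDH1, DHODH, DTYMK, GUK1 and TK1 being higher and RRM1 and ADSL lower. TK1 was the 1 member that separated in opposite directions in the 2 lines, as did 0.818% of all genes.

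Of the remaining paralogs and extremes, PRPS1 had 814, 917 and 922 in 22RV1 56-mer libraries, against 746, 758 and 830.5 in 22RV1 controls. It had 1089, 866 and 915 in C4-2B 56-mer libraries, against 828, 878 and 916 in C4-2B controls. Its 22RV1 log2 change, 0.18 ± 0.099 (SE; 95% interval -0.016 to 0.38), had the smallest p of the set in that line (limma adjusted p = 0.9996). PRPS2 had 815, 711 and 741 in 22RV1 56-mer libraries, against 695, 740.02 and 684 in 22RV1 controls. It had 477, 446 and 398 in C4-2B 56-mer libraries, against 425, 449 and 618 in C4-2B controls. Both groups overlapped in both lines. IMPDH2 counts were 2765, 2715 and 2652 in 22RV1 56-mer libraries, against 2592, 2570.3 and 2510.0 in 22RV1 controls. They were 3974, 3587 and 3839 in C4-2B 56-mer libraries, against 3758, 3519 and 3485 in C4-2B controls. The 22RV1 groups of IMPDH2 did not overlap, yet its log2 change was 0.084 ± 0.070 (SE; 95% interval -0.057 to 0.22) in 22RV1 and 0.083 ± 0.075 (SE; 95% interval -0.072 to 0.24) in C4-2B. APRT reached 813, 1134 and 1024 in 22RV1 56-mer libraries, against 984, 1025 and 1102 in 22RV1 controls. It reached 5421, 4879 and 4421 in C4-2B 56-mer libraries, against 4675, 4707 and 4027 in C4-2B controls. The groups overlapped in each line, with 22RV1 56-mer 1 the lowest library of its line.

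The small reductase subunits and the mitochondrial thymidine kinase overlapped between groups in both lines. RRM2 had 2144, 1919.8 and 2009.7 in 22RV1 56-mer libraries, against 1995, 2197 and 1974 in 22RV1 controls. It had 1709.9, 1386 and 1661 in C4-2B 56-mer libraries, against 1555, 1452 and 1484 in C4-2B controls. Its log2 changes were -0.022 ± 0.077 (SE; 95% interval -0.18 to 0.13) in 22RV1 and 0.078 ± 0.098 (SE; 95% interval -0.12 to 0.28) in C4-2B. RRM2B counts were 1052, 757 and 799.8 in 22RV1 56-mer libraries, against 737, 909 and 761 in 22RV1 controls. They were 208, 186 and 168 in C4-2B 56-mer libraries, against 214, 168 and 218 in C4-2B controls. The groups overlapped in both lines, with 22RV1 56-mer 1 the highest of its line. TK2 gave 486, 497 and 474 in 22RV1 56-mer libraries, against 518, 506 and 477 in 22RV1 controls. It gave 342, 317 and 259 in C4-2B 56-mer libraries, against 324, 331 and 235 in C4-2B controls. Its groups overlapped too.

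Of the nucleoside diphosphate kinases, NME2 had the fewest reads of the whole set. NME1 had 179, 152 and 167 in 22RV1 56-mer libraries, against 194, 189.8 and 206 in 22RV1 controls. It had 725, 524 and 599 in C4-2B 56-mer libraries, against 476, 629.6 and 494 in C4-2B controls. The 22RV1 groups of NME1 did not overlap, with a log2 change of -0.24 ± 0.17 (SE; 95% interval -0.59 to 0.10), limma adjusted p = 0.9996. NME2 had 29.4, 20.496 and 39.8 in 22RV1 56-mer libraries, against 25.0, 31.5 and 15.8 in 22RV1 controls. It had 32.4, 29.6 and 34.1 in C4-2B 56-mer libraries, against 13.9, 51.3 and 16.9 in C4-2B controls. At these counts the 95% interval of its log2 change reached over -0.58 to 1.18 in 22RV1 and -0.67 to 1.57 in C4-2B.

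The remaining members (GART, PAICS, ADSL, ATIC, ADSS2, DHODH, UMPS, RRM1, TYMS, DUT, DCTD, CMPK1, GUK1, DCK and HPRT1) had limma p of at least 0.22 in 22RV1 and at least 0.0538 in C4-2B. Of these, DCK had -0.37 ± 0.18 (SE; 95% interval -0.75 to 0.0066) and RRM1 -0.19 ± 0.096 (SE; 95% interval -0.39 to 0.0069) in C4-2B. ADSL had 0.16 ± 0.25 (SE; 95% interval -0.34 to 0.67) in 22RV1 and -0.44 ± 0.30 (SE; 95% interval -1.06 to 0.17) in C4-2B, with the widest intervals after NME2. PAICS had the smallest SE in 22RV1, with -0.010 ± 0.065 (SE; 95% interval -0.14 to 0.12) in 22RV1 and -0.0053 ± 0.075 (SE; 95% interval -0.16 to 0.15) in C4-2B. By role, all 5 salvage enzymes had negative values in 22RV1 (median -0.091), and 4 of 5 had positive values in C4-2B (median 0.065). APRT turned to 0.057 without 22RV1 56-mer 1, and TK2 to -0.11 without C4-2B control 3. The C4-2B salvage median was 0.024 with columns scaled to equal totals and 0.075 with quantile normalization. Of the 5 de novo pyrimidine enzymes, 4 had negative values in 22RV1 (median -0.088), and 5 had positive values in C4-2B (median 0.15), which became 3 of 5 (median 0.10) with columns scaled to equal totals, CAD and UMPS turning.

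Genes around the pathway, in lists drawn up by function, gave 0 calls in either direction by limma. Over all genes limma called 0.00975% in 22RV1 and 0.066% in C4-2B. At an unadjusted p under 0.05 it listed 3.91% of all genes in 22RV1 and 8.92% in C4-2B. The median log2 change of all genes was -0.0026 in 22RV1 and -0.011 in C4-2B. Of 26 genes of purine turnover, 24 were tested in 22RV1 (median log2 change -0.043, 1 at an unadjusted p under 0.05) and 21 in C4-2B (0.11, 3). Of 19 genes of pyrimidine turnover, 16 were tested in 22RV1 (-0.081, 1) and 14 in C4-2B (0.077, 2). Of 9 nucleoside carriers, 7 were tested in 22RV1 (0.017, 0) and 6 in C4-2B (0.020, 0). All 5 listed enzymes of nitrogen transfer outside nucleotide synthesis (GFPT1, GFPT2, ASNS, NADSYN1 and CPS1) were tested, with medians of 0.051 in 22RV1 (1 at an unadjusted p under 0.05) and -0.084 in C4-2B (0). In the authors' deposited table all 33 members had the same sign as in the limma fit in both lines, with a smallest adjusted p of 0.99999 in 22RV1 and 1 in C4-2B.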

How the data were processed

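RNA-seq of 12 libraries was used. The deposited normalized values are a signal per gene symbol: read counts that the authors divided by 1 size factor per library, separately for each line, as the values show (100% of nonzero values were whole reads within 0.01). Per the submitters' processing notes DESeq was used; the sources used here do not give aligner, build or annotation. The authors' deposited comparison tables hold log2 changes, a Wald score and p-values.

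Genes reaching 10 normalized counts in 3 or more of a line's 6 libraries were tested with limma 3.58.1 (R 4.3.3, trend and robust variance) on log2(normalized count + 1), two-sided, with Benjamini-Hochberg adjustment over all genes and a threshold of 0.05. The pseudocount understates changes of low genes. The difference between lines came from 1 fit of all 12 libraries. Levels used CPM of recovered reads, divided by merged exon length in GENCODE 29. Alternatives included edgeR 4.0.16, DESeq2 1.42.0 and limma-voom on recovered reads. The limma p-values and SE set a change against the spread between libraries of a group, drawn towards a trend over all genes. For IMPDH2 in 22RV1 the SD within groups was 0.027 on the log2 scale, while the limma SE was 0.070. No counting intervals are given.

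The members and lists were chosen with earlier results of these data known. Values in every library are given for the glutamine-consuming members, the 3 smallest p per comparison, paralog pairs and the extremes of level; the others by range and count.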

Additional observations from a re-analysis of the deposited data

Results flagged for a closer look

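TK1 was the 1 member for which every 56-mer library lay on one side of the controls in 22RV1 and on the other side in C4-2B. The difference of its log2 changes, 22RV1 minus C4-2B, was -0.30 ± 0.11 (SE; limma adjusted p = 0.546), so the difference did not pass the test. The separation in 22RV1 rested on 0.161 normalized counts. Leaving out each library in turn gave differences between -0.34 and -0.24, with the sign kept each time, and correction for GC content and length gave -0.14 (limma adjusted p = 0.791; 0.123 to 0.886 over all alternatives).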

How the results depend on the processing

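No member was called in 22RV1, in C4-2B or in their difference under any of the 18, 18 and 23 alternatives run, though DESeq2 gave an adjusted p to only 15 of the 33 in C4-2B and 14 in the difference, and a mean of at least 50 kept 32. Over all genes the calls ranged over 0 to 11 in 22RV1 (2 with the settings of the report), 0 to 81 in C4-2B (11; 81 without C4-2B 56-mer 1) and 0 to 13 in the difference (0; 13 without C4-2B 56-mer 1). No paired analysis was possible because no label ties a 56-mer library to a control, and replicate numbers only follow record order. Of 986 single values under alternatives, 44 changed sign. These covered only ratios of paired enzymes and the members with values given in every library, with fewer members for differences between lines. Sign changes of the other members, such as UMPS in C4-2B, were not scored. Single log2 changes were scored only by sign and by passing the threshold, so shifts in their size were not counted. Shifts of more than 1 SD were counted only for ratios of paired enzymes, and 3 moved that far, all with coding-transcript lengths. Those lengths multiply a ratio by a fixed factor. The cause of the sign changes was not tested.

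Correction for GC content and length (97.1% of genes tested in 22RV1 and 97.7% in C4-2B had a value) turned the log2 changes of GMPS to -0.024 in 22RV1 and 0.10 in C4-2B, of IMPDH1 in 22RV1 to 0.015 and of RRM2B in C4-2B to 0.035, and the differences between lines of PPAT to -0.058 and of GMPS to -0.12. Quantile normalization gave GMPS -0.0029 and equal totals -0.0038 in 22RV1, and equal totals gave CAD -0.037 in C4-2B. These turns are among the scored members only.

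Among the scored members, leaving out 1 library turned the sign of these log2 changes, given as lowest to highest. In 22RV1 they were PFAS -0.14 to 0.023, RRM2B -0.038 to 0.20 and APRT -0.18 to 0.057 (each turned without 56-mer 1), GMPS -0.062 to 0.073 (without 56-mer 1 or control 3), IMPDH1 -0.070 to 0.034 (without any of 4 libraries) and RRM2 -0.064 to 0.027 (without 56-mer 2 or control 2). In C4-2B they were PFAS -0.12 to 0.13 (56-mer 1 or control 2), GMPS -0.088 to 0.065 (56-mer 2 or control 3), CAD -0.12 to 0.12 (56-mer 2, 56-mer 3 or control 3), PRPS2 -0.26 to 0.0072 (control 3) and TK2 -0.11 to 0.17 (56-mer 1 or control 3). The log2 ratio changes in C4-2B were CTPS1/CTPS2 -0.20 to 0.0043 and TK1/TK2 -0.0081 to 0.25 (56-mer 3), and NME1/NME2 -0.68 to 0.025 (control 1). Differences between lines were PPAT -0.038 to 0.16, PFAS -0.19 to 0.062, GMPS -0.052 to 0.10, CAD -0.24 to 0.0045 and PRPS1 -0.010 to 0.16. The C4-2B median of glutamine-consuming members minus that of the others, -0.063 in the report, ranged over -0.12 to 0.057 when 1 library was left out and was 0.023 with the correction for GC content and length.

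After seeing the data, 2 alternatives were added. Setting both lines to an equal median left 14 members higher in 22RV1 controls, against 17. Coding-transcript lengths gave per-kilobase control ratios of 3.02 for CTPS1/CTPS2 and 6.24 for TK1/TK2 in 22RV1 and 0.392 for IMPDH1/IMPDH2 in C4-2B; ADSL, not NME2, was then lowest in both lines, and GUK1 passed TK1 and IMPDH2 to rank 2 in C4-2B. With 3 libraries a group, intervals reached past 1.5-fold for 3 members in 22RV1 and 4 in C4-2B.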
